A study of Mus musculus with 8 samples.

Results

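The genes described here are 10 genes that mark hormone-sensing luminal cells of the mammary duct or act in them: the receptors Esr1, Pgr and Prlr, the transcription regulators Foxa1, Gata3, Tbx3 and Cited1, the oestrogen target Greb1, the signalling ligand Tnfsf11 and the surface protein gene Prom1. They were chosen by name, with earlier results of these data known. Of the 10, 9 had a probe set that the platform annotation pairs with exactly 1 gene symbol, out of 19938 genes tested in all, and Prlr, for which the annotation lists none, was not analysed here. The 9 matched the RefSeq gene table by gene identifier, and each had a single probe set. The RNA came from mammary glands of 8 female virgins of the cross C57BL/6 X FVB, 5 weeks old, when the ducts grow under the hormones of puberty. In 4 mice (MMTV-Cre;Sox9 flox/flox) both copies of the transcription factor gene Sox9 were flanked by recombination sites, and the other 4 (MMTV-Cre;Sox9 +/flox) had a wild-type copy beside the floxed one. In all 8 the recombinase, MMTV-Cre, was under the mouse mammary tumour virus promoter, which is active in mammary epithelium, so the comparison sets loss of both copies against loss of 1 copy in the cells that express the recombinase; every mouse carried the recombinase and at least 1 floxed copy. Tissue was taken from the fourth gland beside its lymph nodes, a mixture of ducts, fat, stroma and immune cells, and each gland had its own Affymetrix Gene 1.0 ST array.

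Luminal cells of the mouse mammary duct fall into hormone-sensing cells, which carry the oestrogen and progesterone receptors, and progenitor cells, which mostly lack them. Oestrogen acts on the sensing cells, which induce the progesterone receptor and release growth signals to their neighbours, among them the RANK ligand encoded by Tnfsf11. FOXA1 opens chromatin for the oestrogen receptor, and GATA3 is needed to form and keep luminal cells and acts together with both. Prom1 encodes prominin-1 (CD133), a membrane protein on cell protrusions that is used to sort hormone-sensing luminal cells in the mouse.

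Sox9 itself averaged 323 ± 35.7 in flox/flox and 410 ± 35.1 in +/flox glands (each ± SD, n = 4), with no overlap between the genotypes (log2 difference -0.33 ± 0.09, SE, limma adjusted p = 0.256, under 0.05 in 0 of 21 alternatives); these and all values below are normalized intensities unless a log2 scale is named. In the intensities as deposited Sox9 overlapped, at 363 and 368 in flox/flox replicates 2 and 4, against 352 in +/flox replicate 4. The defining epithelial markers were measured in every gland: the luminal keratin Krt8 read 2289 to 2684 in flox/flox and 2327 to 2951 in +/flox glands, and the basal keratin Krt5 read 758 to 1529 in flox/flox and 1007 to 1175 in +/flox glands. The adipocyte hormone gene Adipoq read 4949 to 5780 in flox/flox and 5556 to 6398 in +/flox glands. The library labelled +/flox replicate 2 stood apart in lymphocyte genes: the summed intensity of 9 B cell markers was 806 to 914 in flox/flox glands and 4755 in that library, against 812 to 862 in the other +/flox glands. The summed intensity of 14 T cell markers was 2541 to 2783 in flox/flox glands and 4381 in that library, against 2443 to 3006 in the other +/flox glands. In whole glands fewer cells of a type and less RNA per cell cannot be told apart.

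Of the 9 measured genes 0 passed the test over all genes (limma, a linear model per gene with the variance moderated across genes, at a Benjamini-Hochberg adjusted p under 0.05), a threshold that 0.0401% of all genes tested passed. Prom1 and Gata3 lay lower in all 4 flox/flox glands than in any +/flox gland, and the remaining 7 genes overlapped between the genotypes. Among all genes tested 5.9% had no overlap, 3.16% in the lower direction. The same pair had an unadjusted limma p under 0.05, as did 10.3% of all genes, 5.46% in the lower direction. Those 2049 genes divided into 960 higher and 1089 lower in flox/flox glands, and without normalization between arrays 1940 genes divided into 1240 higher and 700 lower. The log2 difference, flox/flox minus +/flox, was negative for 8 of the 9 and positive for Esr1. The median over the 9 was -0.11, beside -0.01 over all genes, 52.6% of which were negative. The 2 measured receptors overlapped between the genotypes, and a surface marker and a transcription factor differed most.

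**Figure D1:**
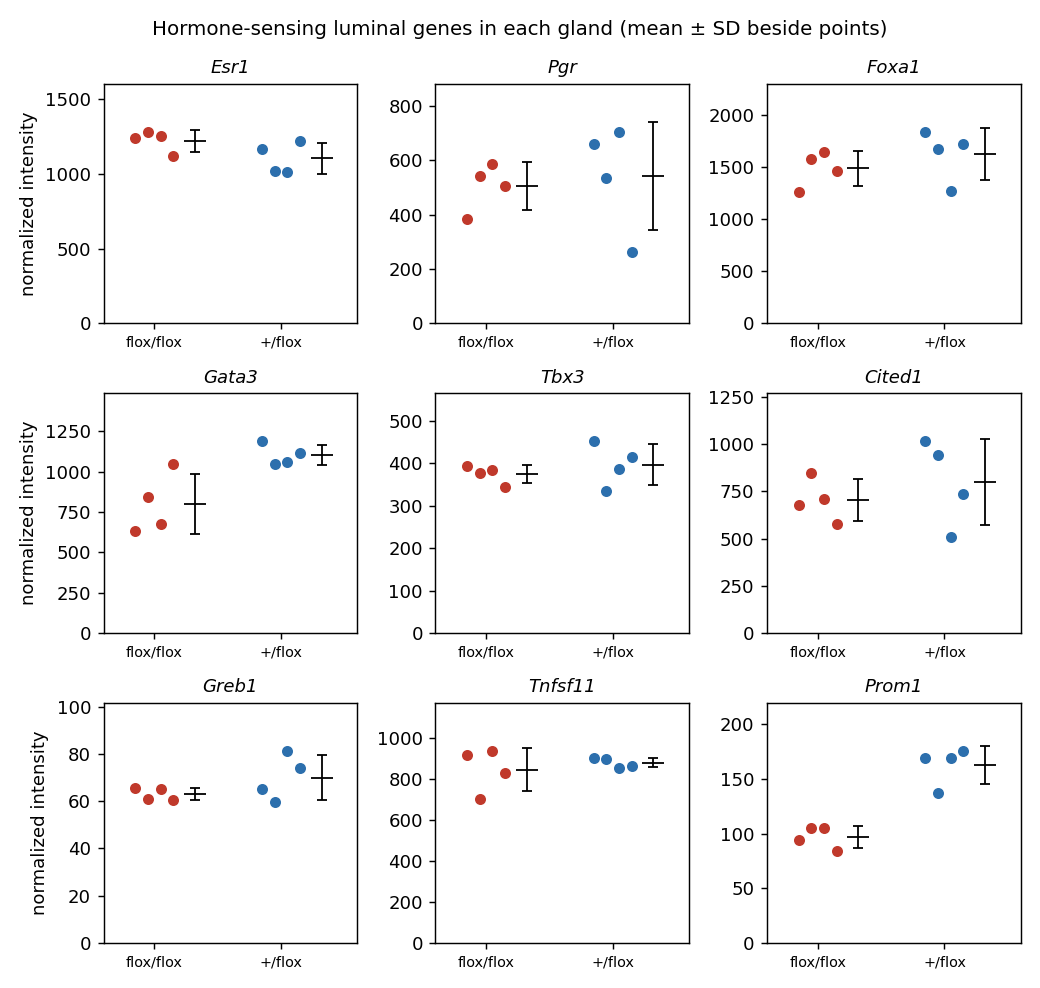
Normalized intensity (y axis, from 0) of the 9 measured genes in each gland, flox/flox (red) left of +/flox (blue), with the mean ± SD of 4 glands beside the points. The genotypes do not overlap for Prom1 (84.3 to 105 in flox/flox, 137 to 175 in +/flox glands) nor for Gata3, where the highest flox/flox gland (1045.5) is just under the lowest +/flox gland (1046.6).

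Prom1 (probe set 10529824, chromosome 5) showed the largest difference of the 9. It read 94.1, 105, 105 and 84.3 in flox/flox replicates 1 to 4, against 169, 137, 169 and 175 in +/flox replicates 1 to 4. All flox/flox glands lay below all +/flox glands. On the log2 scale the gap between the genotypes was 0.333, beside a range of 0.276 within flox/flox and 0.324 within +/flox glands. The means were 97.2 ± 10.1 in flox/flox and 163 ± 17.4 in +/flox glands (each ± SD, n = 4), a ratio of means of 59.8%. The log2 difference was -0.66 ± 0.09 (SE, 95% interval -0.86 to -0.45), which amounts to 63.4% because the offset of 16 is still in it and shrinks the change of a dim gene. It was the gene with rank 9 by limma p among all tested and lay just outside the threshold (limma adjusted p = 0.0501). A 2-sided exact permutation test over the 70 assignments of the 8 arrays gave p = 0.0286, which is the lowest possible value with 4 arrays on each side.

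The call for Prom1 depended on the processing. Its limma adjusted p was 0.0159 for the deposited values, 0.0365 with median centring and 0.251 with all probe sets of the array tested, and over 21 alternatives it was under 0.05 in 7. The lowest +/flox value, 137, was that of replicate 2, the library with the lymphocyte markers, and without it the log2 difference was -0.73 (limma adjusted p = 0.0342). Genes of the cell cycle differed in the same direction: all 21 measured of a 22-gene list had negative log2 differences (median -0.42). Of these, 17 had an unadjusted limma p under 0.05 and 1, Kif11, passed the adjusted threshold. Over all genes tested 52.6% were negative, 5.46% had such an unadjusted p in the lower direction and 0.0401% passed the adjusted threshold. The summed intensity of that list was 3193 to 4053 in flox/flox and 4391 to 5157 in +/flox glands, without overlap, and its part in the Prom1 difference was not tested.

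Gata3 (probe set 10479981, chromosome 2), the zinc finger transcription factor, read 631, 842, 678 and 1045.5 in flox/flox replicates 1 to 4, against 1188, 1046.6, 1062 and 1116 in +/flox replicates 1 to 4. Flox/flox replicates 1 and 3 were clearly lowest, while flox/flox replicate 4 lay only 0.0015 on the log2 scale below the lowest +/flox gland. The +/flox glands were close together and the flox/flox glands were not: the SD of the log2 values was 0.32 in flox/flox and 0.08 in +/flox glands. The means were 799 ± 188 in flox/flox and 1103 ± 63.98 in +/flox glands (each ± SD, n = 4), a ratio of means of 72.4%. The log2 difference was -0.48 ± 0.14 (SE, 95% interval -0.79 to -0.18), with exact permutation p = 0.0286 but limma adjusted p = 0.259. With the values as deposited the genotypes overlapped, the lowest +/flox minus the highest flox/flox gland being -0.0344 on the log2 scale. Without flox/flox replicate 4 the log2 difference was -0.62 and without flox/flox replicate 1 it was -0.38, neither past the threshold. GATA3 is also made by T cells, and of the T cell list 9 of 14 measured markers had negative and 5 positive log2 differences (median -0.10), with 0 at an unadjusted limma p under 0.05, and leaving out +/flox replicate 2 turned that median to 0.087. With the T cell score of each array as a covariate the log2 difference of Gata3 was -0.50 (limma adjusted p = 0.295). That score was 8.09 in +/flox replicate 2 and 7.26 to 7.48 in the remaining glands, so the covariate mostly marks 1 library. The part of T cells in the Gata3 difference was not tested.

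The sequences upstream of Prom1 and Gata3, the pair without overlap between the genotypes, are given with that of Foxa1, the 1 gene of the set whose upstream window held the SOX letters searched for. They are the 250 bases before the annotated transcription start, 5′ to 3′ on the gene's strand, from RefSeq on GRCm38.p6, and RefSeq lists 2 starts for Prom1. Capitals mark any match, on either strand, to the SOX letters ACAAAG, their second form AACAAT, the GATA letters AGATAA, the forkhead letters TGTTTAC and the letters GGTCA (an arm of the oestrogen receptor's palindromic motif).
Prom1, first start, chr5:44101737-44101986, minus strand: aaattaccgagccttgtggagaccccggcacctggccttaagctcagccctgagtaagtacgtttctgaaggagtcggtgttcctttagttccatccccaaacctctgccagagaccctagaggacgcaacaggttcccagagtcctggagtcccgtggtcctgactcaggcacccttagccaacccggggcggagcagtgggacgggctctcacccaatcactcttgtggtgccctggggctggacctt
Prom1, second start, chr5:44094769-44095018, minus strand: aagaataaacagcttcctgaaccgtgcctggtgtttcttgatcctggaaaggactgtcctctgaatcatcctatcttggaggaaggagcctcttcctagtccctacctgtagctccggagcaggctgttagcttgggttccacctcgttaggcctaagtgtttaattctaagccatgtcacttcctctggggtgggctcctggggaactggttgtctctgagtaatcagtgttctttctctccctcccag
Gata3, chr2:9878601-9878850, minus strand: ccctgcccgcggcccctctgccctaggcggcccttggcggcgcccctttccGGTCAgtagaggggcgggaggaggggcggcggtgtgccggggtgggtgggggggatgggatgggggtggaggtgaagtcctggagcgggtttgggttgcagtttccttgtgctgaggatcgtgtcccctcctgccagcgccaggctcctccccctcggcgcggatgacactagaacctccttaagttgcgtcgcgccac
Foxa1, chr12:57546112-57546361, minus strand: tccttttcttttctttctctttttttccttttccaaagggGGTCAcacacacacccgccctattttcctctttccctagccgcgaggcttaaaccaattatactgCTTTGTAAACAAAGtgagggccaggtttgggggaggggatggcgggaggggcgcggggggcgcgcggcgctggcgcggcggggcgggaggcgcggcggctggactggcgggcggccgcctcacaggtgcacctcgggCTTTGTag

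Neither Prom1 window held any of these letters. The Gata3 window held a single GGTCA, as 35.2% of all 32851 upstream windows of this length held at least 1. The Foxa1 window held 3 matches to ACAAAG or its complement, 2 of them in the run CTTTGTAAACAAAG, where they overlap a match to the forkhead letters, and a single GGTCA. Of all windows 16.5% held the SOX letters, 9.42% their second form, 9.99% the GATA letters and 3.17% the forkhead letters. Of 16 windows of 9 of the genes, Prlr included and Tbx3 not listed, 1 held the SOX letters, 2 the forkhead letters and 6 GGTCA, and 0 held the second SOX form or the GATA letters. A match is a run of letters and says nothing of binding.

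**Figure D2:**
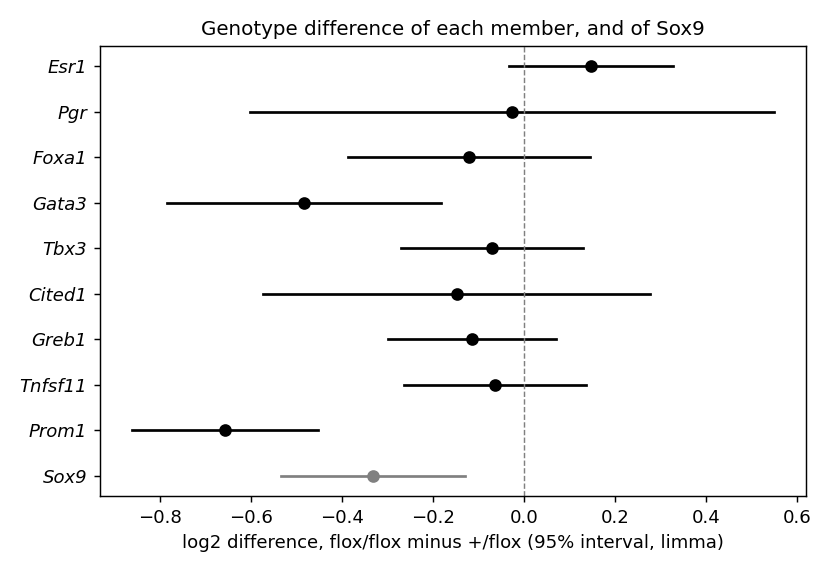
Log2 difference, flox/flox minus +/flox (x axis), with its 95% interval from limma, for the 9 measured genes and for Sox9 (grey). The intervals of Prom1 and Gata3 lie below 0, and those of the remaining 7 members include it; no member passed the adjusted threshold.

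The steroid hormone receptor genes did not separate the genotypes in the RNA of whole glands, which does not show which cells a signal came from. Esr1, the oestrogen receptor alpha (probe set 10367600, chromosome 10), read 1238, 1284, 1252 and 1117 in flox/flox replicates 1 to 4, against 1166, 1020.1, 1012 and 1220.3 in +/flox replicates 1 to 4. The highest 3 values were those of flox/flox replicates 2, 3 and 1, and flox/flox replicate 4 lay within the range of the +/flox glands. The log2 difference was 0.15 ± 0.08 (SE, 95% interval -0.03 to 0.33), the only positive one among the 9 (limma adjusted p = 0.57, exact permutation p = 0.143). The interval ran from 97.8% to 126% of the +/flox level.

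Pgr, the progesterone receptor (probe set 10583179, chromosome 9) and a classical oestrogen target, read 382, 544, 587 and 505 in flox/flox replicates 1 to 4, against 661, 536, 706 and 263 in +/flox replicates 1 to 4. Both the highest and the lowest value were in +/flox glands, and +/flox replicate 4 stood far below the rest. The SD of the log2 values was 0.26 in flox/flox and 0.63 in +/flox glands. The log2 difference was -0.03 ± 0.26 (SE, 95% interval -0.60 to 0.55), and without +/flox replicate 4 it was -0.33 (limma adjusted p = 0.46). Without flox/flox replicate 1, +/flox replicate 1 or +/flox replicate 3 it was positive, at 0.0969, 0.0973 and 0.128. In +/flox replicate 4 the mean log2 value of the shared luminal list was 9.26, within the range of 9.10 to 9.33 of the other +/flox glands. Cd24a, a member of that list, had its lowest value in that gland, at 1157. The cause of the low Pgr value there was not tested.

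Among the transcription regulators, Foxa1 (probe set 10400504, chromosome 12), whose upstream window held the SOX letters, read 1262, 1577, 1641 and 1464 in flox/flox replicates 1 to 4, against 1839, 1673, 1269 and 1719.6 in +/flox replicates 1 to 4. The 3 highest values were in +/flox glands, but +/flox replicate 3 was nearly as low as the lowest flox/flox gland. The log2 difference was -0.12 ± 0.12 (SE, limma adjusted p = 0.78), and with 1 array left out it lay between -0.24 (without +/flox replicate 3) and -0.05 (without flox/flox replicate 1), at -0.06 without +/flox replicate 1. Cited1, a transcription co-regulator of the oestrogen receptor pathway (probe set 10606083, chromosome X), read 675, 847, 710.1 and 579 in flox/flox replicates 1 to 4, against 1015, 943, 509 and 735 in +/flox replicates 1 to 4. Its lowest value was again in +/flox replicate 3 and its 2 highest in +/flox replicates 1 and 2. The log2 difference of Cited1 was -0.15 ± 0.19 (SE, limma adjusted p = 0.835). It was -0.34 without +/flox replicate 3 and -0.24 without flox/flox replicate 2, but -0.02 without +/flox replicate 1, -0.05 without +/flox replicate 2 and -0.06 without flox/flox replicate 4. Tbx3, a T-box factor needed for early mammary development (probe set 10525016, chromosome 5), ranged from 345 to 394 in flox/flox and from 335 to 451 in +/flox glands. Its flox/flox values lay within the range of the +/flox values, with a log2 difference of -0.07 ± 0.09 (SE, limma adjusted p = 0.833). That difference was -0.0081 without +/flox replicate 1, -0.03 without flox/flox replicate 4 and -0.15 without +/flox replicate 2.

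Greb1, a target and cofactor of the oestrogen receptor (probe set 10399505, chromosome 12), read 65.7, 60.8, 65.1 and 60.7 in flox/flox replicates 1 to 4, against 64.9, 59.6, 81.1 and 74.2 in +/flox replicates 1 to 4. The 2 highest values were in +/flox replicates 3 and 4. The log2 difference was -0.11 ± 0.08 (SE, limma adjusted p = 0.683), with -0.05 without +/flox replicate 3 and -0.17 without +/flox replicate 2. No detection calls came with the values, so how far intensities as low as those of Greb1 and Prom1 stand above background is unknown. Tnfsf11, the RANK ligand through which progesterone acts on neighbouring cells (probe set 10421737, chromosome 14), read 919.9, 703, 936 and 828 in flox/flox replicates 1 to 4, against 904, 898, 855 and 866 in +/flox replicates 1 to 4. The flox/flox glands held its highest and its lowest values, and the log2 difference was -0.06 ± 0.09 (SE, limma adjusted p = 0.85). Tnfsf11 and Gata3 were the 2 genes more variable in flox/flox glands, with an SD of the log2 values of 0.19 in flox/flox and 0.04 in +/flox glands for Tnfsf11, while the remaining 7 were more variable in +/flox glands.

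To set the genes against the amount of epithelium, each log2 value was reduced by the mean log2 value of 21 genes shared by luminal cells in the same gland. Only differences between glands carry meaning on this scale, since probe sets differ in brightness. The scale does not show which cells of the gland a signal came from. That mean was 9.07, 9.24, 9.20 and 9.38 in flox/flox replicates 1 to 4, against 9.33, 9.10, 9.21 and 9.26 in +/flox replicates 1 to 4, overlapping between the genotypes. Prom1 stayed apart, with relative values of -2.403 ± 0.22 in flox/flox and -1.75 ± 0.08 in +/flox glands (each ± SD, n = 4). Its values were -2.29, -2.31 and -2.28 in flox/flox replicates 1 to 3 and -2.73 in replicate 4, the gland with the highest luminal mean. Without that gland the relative difference of Prom1 was -0.55. Gata3 had relative values of 0.42 ± 0.21 in flox/flox and 0.90 ± 0.04 in +/flox glands, and its flox/flox replicate 4 was then at 0.67, clear of the lowest +/flox gland at 0.86. The relative difference was -0.66 for Prom1 and -0.48 for Gata3, each with a 2-sided exact permutation p of 0.0286, and the exact p of the remaining 7 was between 0.257 and 0.971. Of all genes tested 1.76% had no overlap on this relative scale, 0.943% in the lower direction, against 5.9% and 3.16% before the subtraction. The luminal mean was subtracted from every gene, which adds its spread to genes that do not follow it. The lower share is therefore partly set by the scale. With 9 genes given the exact permutation test on this scale, its p-values were not adjusted.

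**Figure D3:**
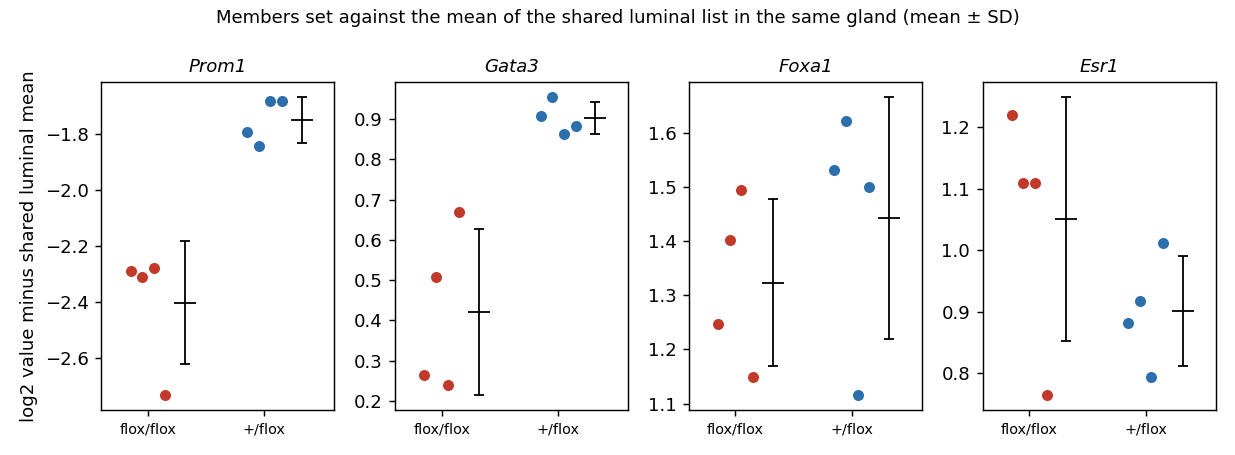
Log2 value of Prom1, Gata3, Foxa1 and Esr1 minus the mean log2 value of 21 shared luminal genes in the same gland (y axis, each panel with its own range), flox/flox (red) left of +/flox (blue), with mean ± SD. Prom1 and Gata3 are lower in each flox/flox gland than in any +/flox gland, and Foxa1 and Esr1 overlap.

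The glands did not line up in the same order for every gene. In +/flox replicate 1, the gland with the highest Foxa1, Gata3, Tbx3 and Cited1, the mean z-score of the 9 (log2 value minus its mean, over its SD across the 8 arrays) was 0.85, the highest of the 8. In flox/flox replicate 1 both Foxa1 and Gata3 were at their lowest, and the shared luminal list had its lowest mean z-score (-0.91). In flox/flox replicate 4 Gata3 was the highest of its genotype, whereas Prom1, Esr1, Cited1, Tbx3 and Greb1 were the lowest of their genotype. That gland had the highest mean z-scores of the shared luminal list (0.95) and of the basal and myoepithelial list (1.19).

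**Figure D4:**
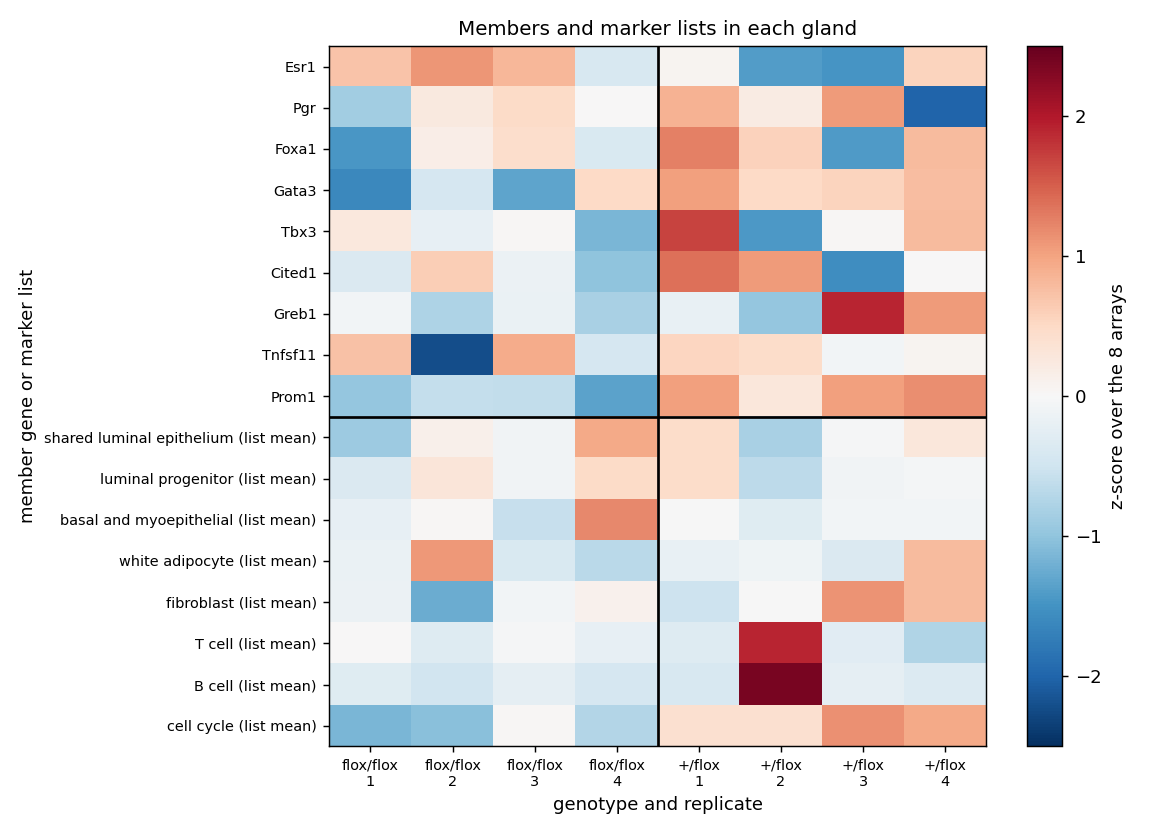
Z-score over the 8 arrays (colour) of the log2 value of each measured gene (upper block) and mean z-score of marker lists (lower block), with 1 column per gland, flox/flox left of +/flox. Prom1 and the cell cycle list divide the genotypes, and the B cell and T cell lists are high in +/flox replicate 2 (2.37 and 1.90).

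Genes tied directly to the receptors and the ligand differed little. The RANK receptor gene Tnfrsf11a averaged 247 ± 15.7 in flox/flox and 241 ± 15.96 in +/flox glands, and the decoy receptor gene Tnfrsf11b 115 ± 5.47 in flox/flox and 105 ± 17.2 in +/flox glands (each ± SD, n = 4). The ligand gene Wnt4, induced by progesterone, averaged 395 ± 31.7 in flox/flox and 418 ± 21.7 in +/flox glands. The prolactin signal transducers Stat5a and Stat5b had log2 differences of -0.10 and 0.01, and the second oestrogen receptor gene Esr2 one of -0.10. For these 6 genes the genotypes overlapped, and their limma adjusted p was between 0.687 and 0.99. Areg and Calca, which were also listed, were not analysed here.

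Wider lists of the hormone pathways were split between the directions. Of 20 measured effectors of oestrogen and progesterone 11 had positive and 9 negative log2 differences (median 0.0040), with 1 higher and 4 lower at an unadjusted limma p under 0.05 and 0 past the adjusted threshold. Lower with the smallest p were the secreted protease gene Adamts18 (-0.54 ± 0.16, SE), the growth factor gene Igf1 (-0.35 ± 0.10) and its binding protein gene Igfbp5 (-0.28 ± 0.10), as log2 differences. The 1 higher was Stc2 (0.47 ± 0.18). Of 20 prolactin and JAK-STAT genes 10 were positive and 10 negative (median 0.0025), with 2 higher and 3 lower at that unadjusted p. The transcription factor gene Cebpb read 1327 to 1808 in flox/flox and 1042 to 1292 in +/flox glands, without overlap. The adaptor gene Irs1 (-0.31) and the growth hormone gene Gh (-0.35) had negative log2 differences. Gh also had no overlap, but its means were low, 85.8 in flox/flox and 114 in +/flox glands. How far such intensities stand above background is unknown. Of 19 cofactors and partners of the steroid receptors 9 were positive and 10 negative (median -0.00052), with 1 higher, the transcription factor gene Tfap2a (0.21 ± 0.08), and 1 lower, the receptor corepressor gene Nrip1 (-0.29 ± 0.11), at that unadjusted p. Of 12 RANK signalling genes 8 were positive and 4 negative (median 0.03), with 0 at an unadjusted limma p under 0.05 and Map3k14 (0.14) closest. Over all genes tested 10.3% had such a p, and none of the genes in this paragraph passed the adjusted threshold.

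Relatives of the 9 genes were mostly negative: 15 of 20 measured paralogues and family members had negative log2 differences (median -0.05), beside 52.6% of all genes. Leaving out flox/flox replicate 3 or +/flox replicate 1 gave a median of -0.10, and leaving out +/flox replicate 4 gave -0.02. Tbx2, the T-box factor closest to Tbx3 and also expressed in the developing gland, read 210, 244, 246 and 246 in flox/flox replicates 1 to 4, against 322, 268, 278 and 328 in +/flox replicates 1 to 4. The genotypes did not overlap for Tbx2, with a log2 difference of -0.32 ± 0.09 (SE, limma adjusted p = 0.252), nor for Tbx18 (-0.26 ± 0.08, limma adjusted p = 0.305), a T-box gene of mesenchyme. Prom2, the paralogue of Prom1, overlapped and had a log2 difference of -0.21 ± 0.17.

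The medians of the other epithelial lists lay close to 0. The shared luminal list had 10 positive and 11 negative members (median -0.03), with 0 at an unadjusted limma p under 0.05 and Ehf (0.21) closest. Luminal progenitor genes had 8 positive and 5 negative members (median 0.05), with 2 higher and 2 lower at that unadjusted p, which 10.3% of all genes had. The higher were the protease inhibitor gene Slpi at 0.40 and the retinaldehyde dehydrogenase gene Aldh1a3 at 0.26. The lower were the milk fat globule protein gene Mfge8 at -0.31 and Itgb3 at -0.34. Basal and myoepithelial genes had 10 positive and 6 negative members (median 0.07). At that unadjusted p 2 were higher, the R-spondin receptor gene Lgr5 at 0.48 and the cadherin gene Cdh3 at 0.18, and 0 lower. Of the non-epithelial lists, fibroblast genes had a median of -0.22 over 12 members, with 4 lower at an unadjusted limma p under 0.05, among them Col5a2 (-0.45), Col3a1 (-0.27) and Pdgfrb (-0.23). B cell genes had a median of -0.45 over 9 members, which was -0.03 without +/flox replicate 2. The 11 white adipocyte genes had a median of -0.01, macrophage genes -0.07 over 10 and endothelial genes -0.02 over 10, where Plin4 (-0.21), Cx3cr1 (-0.17) and Cldn5 (-0.56) had the smallest p. In the T cell and B cell lists these were Cd3d (-0.25) and Blk (-0.26).

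For each gene the profile over the 8 arrays was compared with those of 14791 genes of a mean intensity of at least 100, by the root mean square difference of log2 values after centring each gene. Nearest to Gata3 was Adamts18, at 0.13, where the profile of Gata3 itself had a root mean square of 0.32. Adamts18 read 195, 219, 212 and 357 in flox/flox replicates 1 to 4, against 399, 366, 351 and 307 in +/flox replicates 1 to 4. As for Gata3, flox/flox replicate 4 was high and the remaining flox/flox glands were low. BC006965 (0.15) and Esyt3 (0.16) came next. Nearest to Prom1, whose own root mean square was 0.35, were Phkg1, a subunit of phosphorylase kinase (0.12), the spindle motor gene Kif11 (0.13) and the proliferation marker gene Mki67 (0.14). Kif11 read 87.7, 91.1, 98.2 and 88.7 in flox/flox replicates 1 to 4, against 134, 148, 151 and 148 in +/flox replicates 1 to 4.

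Nearest to Pgr were Nes (0.14), the luminal surface gene Cd24a (0.18) and the chaperone gene Hspa5 (0.22), against 0.42 for Pgr itself. Cd24a read 1590.5, 1897.5, 1983 and 1624 in flox/flox replicates 1 to 4, against 2429, 1846, 2010.2 and 1157 in +/flox replicates 1 to 4, so the low +/flox replicate 4 was shared. Nearest to Cited1 were Klhdc7a, Selenok and Als2cl (0.16 to 0.17, own value 0.31), and nearest to Foxa1 were Gse1, Ggct and Car5b (0.083 to 0.09, own value 0.19). Esr1, Tbx3, Greb1 and Tnfsf11 had flat profiles, with own values of 0.118 to 0.123, to which many flat genes are near. Their nearest were Myzap for Esr1, Cpsf4l for Tbx3, Casp8 for Greb1 and Ces1b for Tnfsf11. These likenesses describe the 8 glands, which share their genotypes and mixture of tissues.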

How the data were processed

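RNA of 8 mammary glands, 4 per genotype, was hybridised to Affymetrix Gene 1.0 ST arrays. The deposited table holds linear intensity values, which the authors computed with the PLIER method of Affymetrix Expression Console (version 1.0), according to the submitters' processing notes. Background correction, normalization between arrays and genome build: not given in the sources used here. Array medians were 159 to 178 as deposited, and precision is limited by how few arrays there are. All columns matched a sample. Of 35557 probe sets 21789 had 1 gene symbol, and the brightest stood for each of 19938 genes.

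Values were offset by 16, taken to log2 and quantile normalized, since array percentiles (10th, 50th, 90th) spread by 0.245, 0.145 and 0.105, above a tolerance of 0.1. The genotype test was limma 3.58.1 under R 4.3.3 (lmFit, eBayes, Benjamini-Hochberg over all genes, threshold 0.05). Signed differences subtract +/flox from flox/flox, in log2 units with the offset still in. The alternatives tried were deposited or median-centred values, a block for the replicate number, offsets of 1 and 64, a filter on low values, other choices of probe sets, eBayes options, array weights, a luminal, T cell or adipocyte score as covariate, and each array left out. Single values also got an exact permutation test, 2-sided. The labels do not say whether the mice of a genotype shared a litter, so p-values measure the spread between these glands.

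The members and lists were chosen with earlier results of these data known. The text names all members, from each list up to 3 genes with an unadjusted p under 0.05 or the gene with the smallest p, genes tied directly to a member, and the 3 nearest genes by profile. Prom2, Stc2, Itgb3, and Foxa1 for its upstream sequence, were picked after their values were seen. Replicate numbers gave no consistent sign of pairing: deviations of same-numbered samples correlated at -0.20, 0.06, 0.21 and -0.09. Those of differently numbered samples ran from -0.22 to 0.21. So few correlations cannot exclude a litter or batch shared by some same-numbered samples. In a simulation of this comparison on the 19938 genes, 52% of 50 genes shifted by 0.5 (log2) and 94% of 50 shifted by 1 were recovered. The same run held 50 genes shifted by 2 and 50 by 4, with 98% and 100% recovered, and 8.02% of calls were false. It drew each gene independently. With so many shifted genes the adjusted threshold was easier to pass than in the real data, where 8 genes passed. These shares can therefore overstate how often a real shift of that size would be found. No pair of arrays held an identical value for any gene.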

Additional observations from a re-analysis of the deposited data

Results flagged for a closer look

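In the 4 +/flox glands Prom1 of replicate 2 stood apart from the rest: its distance to the next value was 0.848 of the range of the group on the log2 scale, above the critical value of Dixon's test. It read 137, against 169, 169 and 175 in +/flox replicates 1, 3 and 4, and it was still above every flox/flox gland. Chance flags about 1 in 20 groups, and 18 groups of 4 glands were looked at. The same library had the highest B cell and T cell marker sums, and their part in its Prom1 value was not tested.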

How the results depend on the processing

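The count of genes past the threshold, 8 in the main setting, was 18 with median centring, 19 with an offset of 64, 17 with trend and robust options, 13 with the T cell or the white adipocyte score as covariate, 4 with an offset of 1, 3 without the lowest 1 in 3 genes and 1 with all probe sets, and 2 to 19 with 1 array left out. It was 8 with the replicate number as a block (replicate block), a fit that changed no call of a member. Among the members the count was 0 in the main setting and 1, Prom1, with the values as deposited, median centring, an offset of 64, trend and robust options, and the T cell or white adipocyte score, and 0 to 1 with 1 array left out. The log2 difference of Prom1 ran from -0.74 to -0.49 over 21 alternatives and that of Gata3 from -0.62 to -0.38, with Gata3 past the threshold in 0. Pgr (-0.03 in the main setting) turned positive with the values as deposited (0.0136), median centring (0.0121) and the T cell score (0.0033), and ran from -0.33 to 0.13 with 1 array left out; Tnfsf11 ran from -0.11 to 0.022, positive without flox/flox replicate 2. Relative to the shared luminal mean, for which alternatives were chosen after seeing the data, the ranges with 1 array left out crossed 0 for Pgr (-0.34 to 0.13), Tnfsf11 (-0.15 to 0.029) and Tbx3 (-0.14 to 0.023). On that scale the difference of Gata3 was -0.49 to -0.46 without any 1 of the +/flox replicates, near its main value of -0.48, with an exact permutation p of 0.0571 there, and that of Prom1 was -0.73 to -0.49 over 12 alternatives. The medians of 10 of 15 lists changed sign with 1 array left out. The median of the steroid receptor partners was 0.034 as deposited and 0.032 with median centring, that of the prolactin and JAK-STAT list ran from -0.032 to 0.038 with 1 array left out, and that of the members' families from -0.10 to -0.02. Greb1 was not among the genes left without the lowest 1 in 3. The cause of these changes was not tested.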
